A study of Homo sapiens with 16 samples.

Results

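A set of 38 NF-kB pathway and inflammatory target genes was followed through RNA-seq libraries of the colon cancer cell lines SW480 and SW620. The genes were taken by symbol from the deposited FPKM table and matched by gene identifier to the deposited count table, which held 63677 identifiers in all. A total of 59 identifiers carried a member's symbol, and the 21 beyond 1 per symbol had 0 reads, so each member was read from a single identifier. Low counts left 7 members untested and 31 among the 17464 genes that entered the tests. The set held 9 regulators of the pathway, 9 chemokines, 9 cytokines, 4 survival and signalling genes and 7 surface and effector genes.

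NF-kB is a family of dimeric transcription factors, built from RELA, REL, RELB and the products of NFKB1 and NFKB2. Inhibitor proteins such as NFKBIA hold the dimers in the cytoplasm until a signal such as TNF, interleukin-1 or a bacterial product leads to the inhibitor's destruction. The freed dimers bind kappaB sites in the DNA and switch on chemokines, cytokines and survival genes, together with their own inhibitors NFKBIA and TNFAIP3, which close a feedback loop. In the colon the pathway is best known for linking inflammation of the mucosa to tumour growth.

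SW480 was established from a primary colon carcinoma and SW620 from a lymph node metastasis of the same patient. Each group held 2 libraries, numbered I and II, from cells in DMEM with fetal bovine serum. SW480 contributed 3 untreated groups, namely parental cells, cells transduced with an empty vector, and cells transduced with estrogen receptor beta (ERB, the product of ESR2). SW620 contributed the same 3 untreated groups and a further pair of ERB-transduced groups, one kept for 24 h with DMSO, the solvent, and one for 24 h with 10 nM estradiol, the hormone that ERB binds. The DMSO group carried ERB too, so no estradiol group without ERB entered the comparisons. The promoter of the vector, and whether a transduced line was a clone or a pool, are not given in the sources used here. Nothing in the labels says that libraries I and II came from separate cultures, and a p-value here reflects the spread from library to library, which may be technical.

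The libraries held 12743940 to 18948283 reads. ESR2 had 100 to 187 reads in every ERB library and 0 to 4 in every other, and ESR1 had 0 reads throughout. The libraries labelled SW480 with empty vector stood apart from their label in other genes. Over 288 genes that were at least 8-fold higher in both parental SW480 than in both parental SW620 libraries, members left out, the median level in those libraries was 2.26% of the parental SW480 mean, against 1.42 to 2.05% in SW620 libraries and 17.8 and 22.2% in the SW480 ERB libraries. Each result that rests on the libraries labelled SW480 with empty vector is therefore given under that label, and comparisons that do without them are given beside it. Epithelial markers were abundant in all libraries, at a summed 2927 to 30660 CPM (reads scaled to library size, with TMM factors), although CEACAM5 had at most 7 reads. Leukocyte markers summed to 0.225 to 2.4 CPM, with MS4A1 at 0 reads and PTPRC at no more than 1 read in any library. CD14, also a leukocyte marker, had reads in all 16 libraries, with at most 21 reads and 2.4 CPM. Within a group, libraries I and II differed by gene GC content. Across genes, the Spearman correlation of transcript GC content with the log2 difference of library II from library I ran from -0.673 in parental SW480 to 0.756 in libraries labelled SW480 with empty vector.

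The promoter sequences of members that the results below turn on are shown here, because these members differ in their number of matches to a kappaB consensus. RefSeq promoters (GRCh38.p14, another build than the GRCh37 of the deposited tables) were on hand for 28 members and not for NFKBIE, RELB, CXCL16, CCL2, CCL5, CX3CL1, SAA1, SAA2, CD70 and CSF1. The consensus was GGGRNWYYCC, where R is A or G, N any base, W A or T, and Y C or T. It was searched on both strands and allowed to overlap itself. In all, 1937 of 27305 genes (7.09%) had a match from 250 bases before to 50 after the start. Of the 28 members with a promoter on hand, 19 did (67.9%). Several members are known for such a site, so this share describes the choice of genes. Each line below gives the 250 bases before the start, 5′ to 3′ on the gene's strand, with consensus matches in capitals. The neighbouring chemokine genes CXCL1, CXCL2 and CXCL3 each carried the same 11-base run, GGGAATTTCCC, 78 to 79 bases before the start, and 27 of 35116 promoters in all (0.0769%) held this run on either strand. CXCL5 and, on the other strand, REL held it too, which makes 5 members. TNFAIP3 had matches 55 and 67 bases before the start, BIRC3 had them at 135 and 199, and LTB had one at 86. ICAM1 and TNFAIP2 held no match in these letters, but a site that departs from the consensus would not be counted. The ICAM1 line holds tggaaattcc, which departs from the consensus only at the first base. The windows are chr4:73869143-73869392 (plus strand) for CXCL1, chr4:74099196-74099445 (minus) for CXCL2, chr4:74038690-74038939 (minus) for CXCL3, chr6:137867009-137867258 (plus) for TNFAIP3, chr11:102317234-102317483 (plus) for BIRC3, chr6:31582426-31582675 (minus) for LTB, chr19:10270870-10271119 (plus) for ICAM1 and chr14:103123211-103123460 (plus) for TNFAIP2.
CXCL1: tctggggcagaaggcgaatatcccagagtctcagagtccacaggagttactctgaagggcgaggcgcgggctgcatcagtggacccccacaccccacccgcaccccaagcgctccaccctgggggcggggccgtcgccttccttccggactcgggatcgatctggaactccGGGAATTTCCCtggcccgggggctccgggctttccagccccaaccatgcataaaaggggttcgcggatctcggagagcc
CXCL2: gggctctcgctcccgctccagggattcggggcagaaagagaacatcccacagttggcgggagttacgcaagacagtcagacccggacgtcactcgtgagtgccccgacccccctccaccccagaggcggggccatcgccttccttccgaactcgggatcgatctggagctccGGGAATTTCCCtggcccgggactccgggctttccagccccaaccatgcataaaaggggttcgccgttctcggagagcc
CXCL3: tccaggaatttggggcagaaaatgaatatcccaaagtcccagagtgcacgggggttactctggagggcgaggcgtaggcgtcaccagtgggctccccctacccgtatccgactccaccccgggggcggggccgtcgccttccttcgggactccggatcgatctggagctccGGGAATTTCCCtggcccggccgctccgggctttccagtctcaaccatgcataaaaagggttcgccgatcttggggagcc
TNFAIP3: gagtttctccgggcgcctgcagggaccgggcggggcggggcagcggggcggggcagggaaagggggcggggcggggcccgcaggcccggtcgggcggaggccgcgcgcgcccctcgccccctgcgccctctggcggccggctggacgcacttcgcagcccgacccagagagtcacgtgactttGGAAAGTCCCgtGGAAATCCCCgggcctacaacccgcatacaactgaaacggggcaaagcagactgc
BIRC3: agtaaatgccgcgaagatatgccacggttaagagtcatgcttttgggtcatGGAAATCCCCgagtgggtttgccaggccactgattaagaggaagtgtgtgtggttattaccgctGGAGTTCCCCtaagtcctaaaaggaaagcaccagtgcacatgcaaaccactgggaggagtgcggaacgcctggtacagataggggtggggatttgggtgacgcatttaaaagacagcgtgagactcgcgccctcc
LTB: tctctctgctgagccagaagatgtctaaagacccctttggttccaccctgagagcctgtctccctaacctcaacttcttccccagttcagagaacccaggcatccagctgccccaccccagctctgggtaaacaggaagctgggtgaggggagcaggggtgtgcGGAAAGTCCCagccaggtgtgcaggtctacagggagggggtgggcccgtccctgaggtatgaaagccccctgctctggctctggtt
ICAM1: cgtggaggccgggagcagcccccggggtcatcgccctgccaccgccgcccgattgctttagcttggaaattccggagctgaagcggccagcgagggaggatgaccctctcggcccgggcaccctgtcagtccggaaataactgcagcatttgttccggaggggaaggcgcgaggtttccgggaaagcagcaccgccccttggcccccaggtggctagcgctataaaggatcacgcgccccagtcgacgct
TNFAIP2: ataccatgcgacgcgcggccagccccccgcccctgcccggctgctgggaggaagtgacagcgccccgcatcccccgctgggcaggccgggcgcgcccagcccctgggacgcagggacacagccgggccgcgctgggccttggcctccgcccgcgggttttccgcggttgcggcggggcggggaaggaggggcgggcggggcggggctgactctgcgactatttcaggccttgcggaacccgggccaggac

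Across the 8 groups, parental SW480 stood above the other 7 in the summed level of the 38 members. The sum reached 1793 and 1371 CPM in the parental SW480 libraries, 661 and 550 CPM in SW480 with ERB, 296 and 468 CPM in libraries labelled SW480 with empty vector, and 254 to 316 CPM in the 10 SW620 libraries. Per transcript length, in FPKM as the authors deposited them, the highest members in parental SW480 were the acute-phase serum amyloid genes SAA1 (915 ± 488, SD, n = 2) and SAA2 (637 ± 364). TNFAIP2, a gene first found by its induction with TNF, followed at 189 ± 19.4 FPKM. Below it lay TNIP1 (86.9 ± 20.9), ICAM1 (75.8 ± 7.20), IL32 (74.6 ± 37.5) and NFKBIA (64.6 ± 5.63), where each neighbour in the order differed from the next by less than the larger of their SDs. In parental SW620 the order was another one, led by SOD2 (49.1 ± 7.92 FPKM) and NFKBIA (45.6 ± 10.9), with TNFAIP2 at 1.98 ± 0.351. Bulk libraries do not tell fewer expressing cells from less RNA in each cell.

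**Figure D1:**
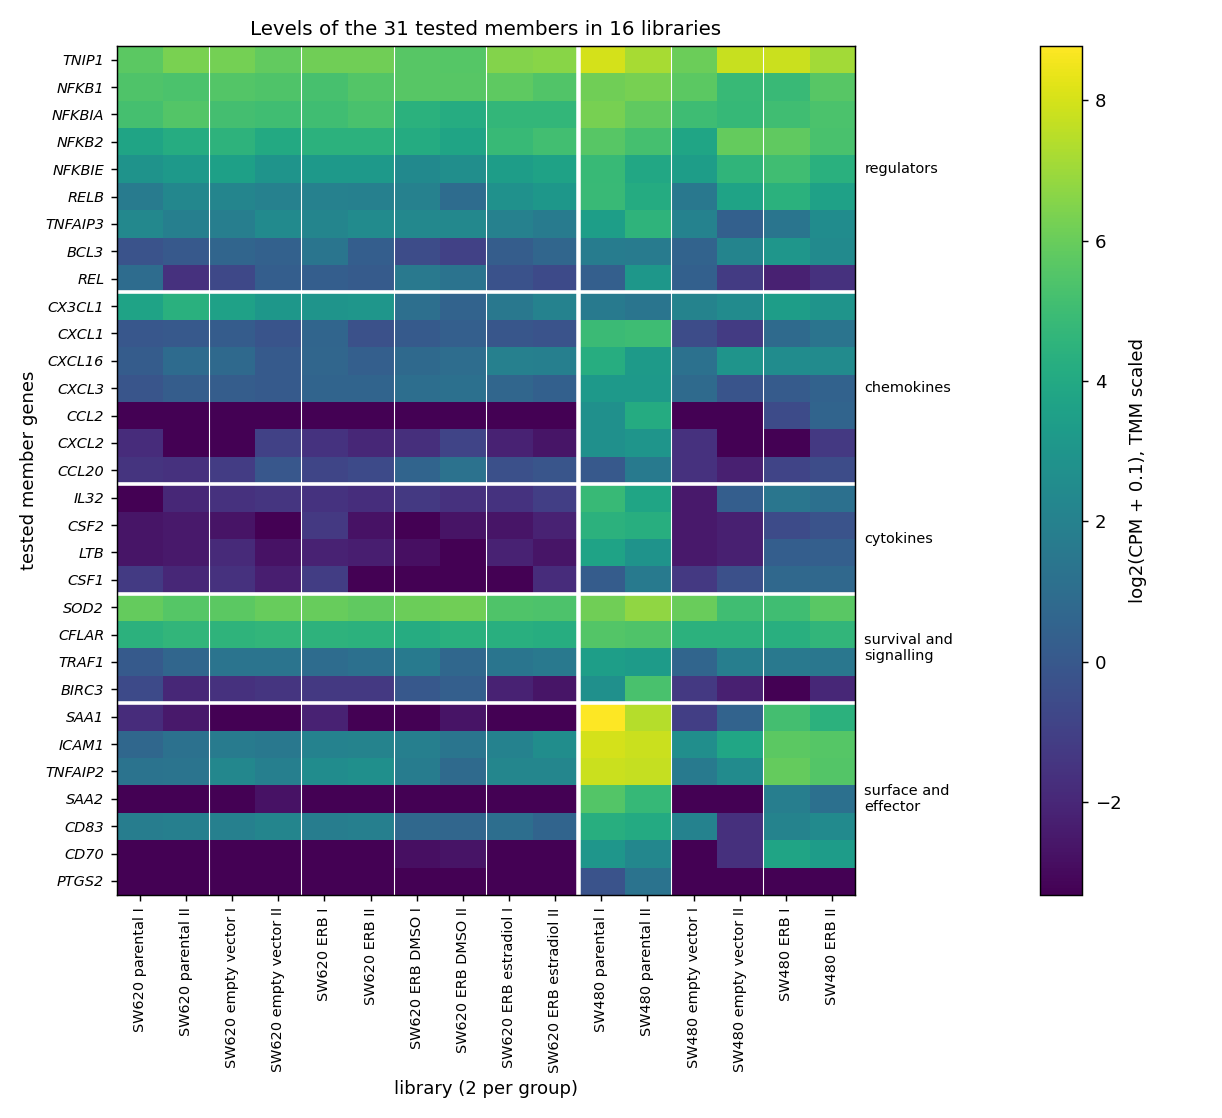
Levels of the 31 tested members in each of 16 libraries, as log2 of TMM-scaled CPM plus 0.1, with members in rows by role and libraries in columns by group. The parental SW480 columns are bright in nearly all rows of the lower 4 blocks, where summed levels reach 1793 and 1371 CPM against 254 to 316 CPM in SW620, while the upper regulator rows vary less between groups.

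The 7 members too low to test were chemokines and cytokines, and, LTA apart, most of their reads came from parental SW480. TNF, the cytokine that sets off the pathway, had 21 and 11 reads in parental SW480 libraries I and II and at most 2 in any other. CXCL5, a neutrophil chemokine, had 2 and 31 reads there and 1 read elsewhere. IL1B had 5 and 2 reads and CCL5 had 0 and 4 reads in parental SW480, and both had 0 in every other library. LTA had 2 and 7 reads in parental SW480, 3 and 3 in SW620 ERB with DMSO, 5 and 4 with estradiol, and at most 1 elsewhere. IL1A and IL6 had 0 reads in all 16 libraries, which allows up to 3 reads in each. TNF, IL1A, IL1B and IL6 were thus scarce or at 0 reads in the libraries where other members were high.

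The parental lines were compared to ask how far the set differs between the primary and the metastatic line. Of 31 tested members, 24 were lower in SW620 and 1 was higher by edgeR's quasi-likelihood test at a Benjamini-Hochberg adjusted p under 0.05, with 18% of all genes called, 11.2% lower and 6.84% higher. The median member was at -3.10 on the log2 scale and the median gene at -0.05. All 7 surface and effector genes, the 4 tested cytokines and 6 of 7 chemokines fell, as did 3 of 4 survival genes and 4 of 9 regulators. The called count was 16 without SW620 parental I, where 11% of all genes were called, and also 16 without SW620 parental II, where 7.41% were. Both of these fits lost BCL3, CCL20, CD83, CFLAR, CSF1, PTGS2, RELB, TNFAIP3 and TNIP1. The rise belonged to CX3CL1, a membrane-bound chemokine for monocytes and T cells named here after its values were seen. CX3CL1 had 3.03 and 2.49 CPM in parental SW480 and 13.0 and 20.4 CPM in parental SW620, a log2 difference of 2.60 (SE 0.41, adjusted p = 0.000976).

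ICAM1 and TNFAIP2 had the smallest adjusted p of the surface and effector genes. ICAM1, the adhesion molecule that leukocytes grip on epithelium and endothelium, had 255 and 227 CPM in parental SW480 and 1.55 and 2.18 CPM in parental SW620 (log2 difference -7.01, SE 0.49, adjusted p = 8.77e-06). TNFAIP2 had 224 and 210 CPM against 2.36 and 2.41 CPM (-6.51, SE 0.45, adjusted p = 8.77e-06). In both genes the libraries of a line lay close together and the lines did not overlap. SAA1 had 438 and 170 CPM in parental SW480, and 3 and 1 reads in parental SW620. SAA2 had 47.0 and 27.7 CPM against 0 reads, and was at least 345-fold higher in SW480 on a floor of 3 reads over the group, with library totals scaled by the TMM factors as for CPM. SAA1 and SAA2 share sequence, since 54.2% of the 50-base windows of the SAA1 transcripts also occur in SAA2, so their split is uncertain and their fall is best read as one. CD70, a TNF-family ligand on activated lymphocytes, had 129 and 110 reads in parental SW480 and 0 in parental SW620, at least 59-fold. PTGS2, the inducible prostaglandin synthase, had 12 and 53 reads in parental SW480 and 0 in the other 14 libraries, at least 16.1-fold above parental SW620. CD83, a maturation marker of dendritic cells, had 19.2 and 16.9 CPM against 3.35 and 3.66 CPM.

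The chemokines and cytokines followed the same direction at lower levels. CXCL1, a neutrophil chemokine, had 30.7 and 31.8 CPM in parental SW480 and 0.711 to 1.45 CPM in the 10 SW620 libraries, with a parental difference of -5.10 on the log2 scale (SE 0.45, adjusted p = 3.42e-05). CXCL3 had 9.26 and 8.95 CPM against 0.806 to 2.08 CPM in SW620 (-3.26, SE 0.40, adjusted p = 0.000218). CXCL2 had 106 and 182 reads in parental SW480 and 3 and 0 in parental SW620, a ratio of 71.1, on the same scaling, with an exact 95% counting interval from 24.1 to 347. No SW620 library of any group reached the parental SW480 level of these neighbouring genes. CCL2, the monocyte chemokine, had 106 and 402 reads in parental SW480 and 0 in all 10 SW620 libraries, at least 125-fold above parental SW620. IL32, a cytokine of epithelial and immune cells, had 462 and 312 reads against 0 and 2 (ratio 287, interval 79.1 to 2370). CSF2, the growth factor of granulocytes and macrophages, had 358 and 433 reads against 1 and 1 (ratio 293, interval 80.8 to 2420). LTB, the membrane anchor of the lymphotoxin complex, had 205 and 166 reads against 1 and 1 (ratio 137, interval 37.8 to 1140). CCL2 stood out for its spread in parental SW480 between library I and library II, whereas CSF2 and LTB were close in both.

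Among survival genes, BIRC3, an inhibitor of apoptosis that also edits TNF receptor signalling, fell by 5.92 (SE 0.88, adjusted p = 0.000699), from 6.55 and 39.0 CPM in parental SW480 to 0.0627 to 1.15 CPM across SW620. TRAF1, an adaptor of TNF receptors, had 11.1 and 9.95 CPM against 0.992 and 1.48 CPM (-3.09, SE 0.47, adjusted p = 0.000821). CFLAR, which blocks caspase-8, had 46.7 and 43.9 CPM against 21.6 and 24.4 CPM (-0.98, SE 0.26, adjusted p = 0.0208). The CFLAR call was lost with GC and length offsets, which take each library's trend with these gene properties out of the fit (-0.25, adjusted p = 0.721), on each FPKM scale, without the low-count filter and without SW480 parental II. BIRC3 differed strongly between the parental SW480 libraries, and TRAF1 and CFLAR hardly did. SOD2, the mitochondrial superoxide dismutase, had 70.0 and 110 CPM against 61.1 and 47.6 CPM and was not called. Of the regulators, TNFAIP3, the ubiquitin-editing feedback inhibitor A20, had 11 and 23.5 CPM against 4.96 and 3.58 CPM (-2.01, SE 0.57, adjusted p = 0.0286), and TNIP1, its partner, RELB and BCL3, a nuclear coactivator of the IkB family, were also lower. The TNFAIP3 call was likewise lost without SW480 parental II and on each FPKM scale. NFKB1, NFKB2, NFKBIA, NFKBIE and REL were not called, with log2 differences from -0.69 to -2.16.

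The empty vector was compared with parental cells to measure what transduction alone did. In SW480, 21 of 31 members were lower and 0 higher in libraries labelled SW480 with empty vector (edgeR), with 30.9% of all genes called, 16% lower and 14.9% higher. The median member was at -2.82 and the median gene at -0.11 on the log2 scale. All 7 surface and effector genes fell, as did 6 of 7 chemokines, 3 of 4 cytokines, 3 of 4 survival genes, and TNFAIP3 and NFKBIA among 9 regulators. With the 6 SW480 libraries alone the count was 12, all lower, where 4.39% of all genes were called. TNFAIP2 was at 2.93 and 5.57 CPM in these libraries (-5.69, SE 0.44, adjusted p = 1.82e-05) and ICAM1 at 6.24 and 14.2 CPM (-4.56, SE 0.43, adjusted p = 6.2e-05). CXCL1 was at 0.601 and 0.334 CPM (-6.00, SE 0.49, adjusted p = 2.32e-05), below every SW620 library. SAA1 kept 5 and 12 reads, and CCL2, SAA2 and PTGS2 had 0, which put them at least 96.5-fold, 265-fold and 12.4-fold below parental SW480. TNFAIP2 thus lay inside the SW620 range of 1.73 to 6.45 CPM, and CXCL1 below the SW620 range. ICAM1 lay above the highest SW620 library (6.01 CPM), narrowly in library I (6.24 CPM) and clearly in library II (14.2 CPM). The 288 genes high in parental SW480 were near the SW620 level in the same libraries. The 35 genes high in parental SW620 were at 28.8 and 66.2% of the parental SW620 mean. The part of the libraries' identity in these differences was not tested. Markers of other cell types moved too, with 6 of 8 tested epithelial and 2 of 3 tested fibroblast markers higher than in parental SW480. The summed fibroblast level was 3.64 and 10.7 CPM in parental SW480 and 10.1 and 21.9 CPM in the vector group. COL1A1, LUM and PDGFRB had reads in all 16 libraries and COL3A1 had 0 reads, and the part of these markers was not tested.

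The same comparison in SW620 called 0 of 31 members, and 0 at an unadjusted p under 0.05, with 0% of all genes called by edgeR. DESeq2 also called 0 members, and 0.0546% of its genes. TNFAIP2 had 2.36 and 2.41 CPM in parental SW620 and 4.70 and 3.62 CPM with empty vector, and ICAM1 had 1.55 and 2.18 against 3.13 and 2.74 CPM. Both were a little higher with the vector, without overlap, and neither passed the test. Of 31 members, 7 were higher and 4 lower without overlap. By chance 33.3% of genes would separate with 2 against 2 libraries. When the vector effect of SW620 was subtracted from that of SW480, 11 of 31 members were called, all lower, with 7.2% of all genes called, 4.2% lower and 3.01% higher. They were TNFAIP2, ICAM1, SAA2, CXCL1, CXCL2, CXCL3, CCL20, IL32, LTB, BIRC3 and TRAF1. With offsets for GC content and length the count was 20, 19 of them lower, where 22% of all genes were called, and the split of all genes turned from 733 lower and 525 higher to 1844 lower and 2003 higher. The count ran from 5 without SW620 empty vector II, where 1.88% of all genes were called, to 17 without SW480 empty vector I, where 42.5% were.

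**Figure D2:**
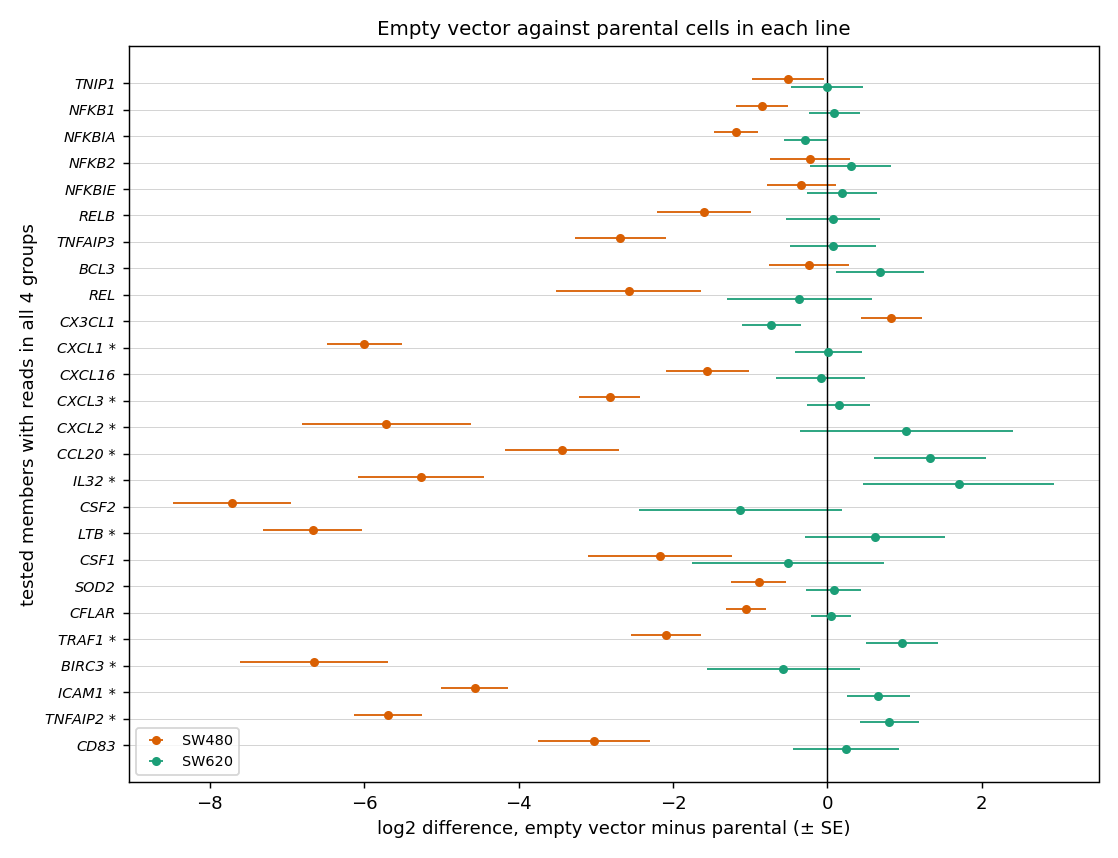
Log2 difference of empty vector from parental cells (point, with its SE as a bar) in SW480 and SW620 for the 26 tested members with reads in all 4 groups; a star marks the 10 of them called in the difference between the lines. SW620 points lie around 0, between -1.13 and 1.70, and the starred SW480 points lie between -6.67 for LTB and -2.09 for TRAF1.

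SW480 with ERB was compared with the libraries labelled SW480 with empty vector to measure the effect of the receptor. Of 31 members, 6 were higher and 0 lower (edgeR), where 1.1% of all genes were called, all higher. They were TNFAIP2, ICAM1, CD70, SAA1, SAA2 and LTB, that is 5 of 7 surface and effector genes and 1 of 4 tested cytokines. The median member was at 0.88 and the median gene at -0.07 on the log2 scale. TNFAIP2 had 61.1 and 46.6 CPM with ERB against 2.93 and 5.57 CPM (3.67, SE 0.40, adjusted p = 0.000882), and ICAM1 had 53.4 and 48.4 against 6.24 and 14.2 CPM (2.32, SE 0.40, adjusted p = 0.0136). SAA1 had 35.6 and 21.8 against 0.376 and 1.34 CPM (5.13, SE 0.79, adjusted p = 0.0125). In all 3 genes both ERB libraries lay above both vector libraries and below both parental ones. CD70 had 116 and 132 reads with ERB against 0 and 2 (ratio 126, interval 34.6 to 1050, adjusted p = 0.00761), SAA2 had 31 and 28 against 0 and 0 (at least 20.1-fold, adjusted p = 0.0243), and LTB had 10 and 15 against 1 and 1 (ratio 12.7, interval 3.18 to 111, adjusted p = 0.035).

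Other members fell short of the threshold in this comparison. CXCL1 had 1.71 and 2.44 CPM with ERB against 0.601 and 0.334 CPM (2.1, SE 0.47, adjusted p = 0.0581), CCL2 had 5 and 18 reads against 0 and 0, and CSF2 had 5 and 10 against 1 and 1. CXCL3, TRAF1 and CFLAR were at log2 differences of -0.13, 0.17 and 0.02. BIRC3 had 0 and 2 reads against 4 and 1. The 6 calls became 10 without SW480 empty vector II, where 4.74% of all genes were called, 5 without SW480 empty vector I (1.53% of all genes), 2 without SW480 ERB I (TNFAIP2 and CD70, with 0.486% of all genes) and 3 without SW480 ERB II (TNFAIP2, CD70 and SAA1, with 0.497%). Without SW480 empty vector I, SAA2 and LTB lost their calls and CD83 was called instead. With the 6 SW480 libraries alone the count was 0, as over all genes (0%), and with GC and length offsets in that fit it was 5, all but LTB, where 0.792% of all genes were called. Across genes, the difference rose with transcript GC content (Spearman 0.383 over the 31 members and 0.576 over 17123 genes), and offsets for it changed the split of all called genes from 192 higher and 0 lower to 462 higher and 121 lower. The same offsets in the fit of 16 libraries gave 7 members higher and 0 lower, where 3.34% of all genes were called.

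**Figure D3:**
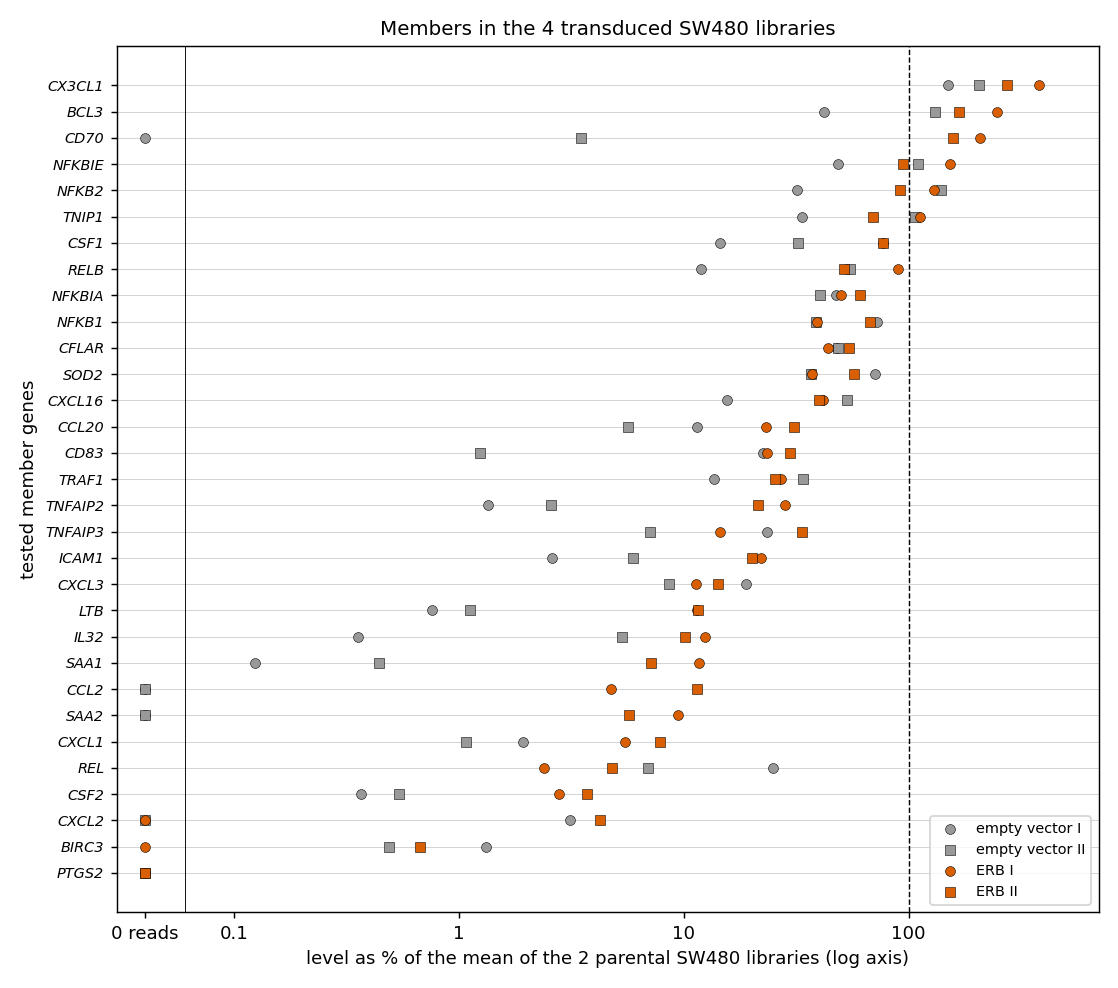
Level of each of the 31 tested members in the 4 transduced SW480 libraries relative to parental SW480 (percent of the mean), on a log axis with libraries of 0 reads at the left, ordered by the ERB mean. CD70 stands at 207 and 158% with ERB and at 0 and 3.49% in libraries labelled SW480 with empty vector, while BIRC3 is at 1.32% or below in all 4 libraries and PTGS2 at 0.

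The share of the parental level seen with ERB differed widely from gene to gene. CD70 was at 207 and 158% of the parental SW480 mean with ERB, and TNFAIP2 at 28.1 and 21.4%. ICAM1 was at 22.1 and 20.1%, LTB at 11.5 and 11.5%, SAA1 at 11.7 and 7.17%, and CXCL1 at 5.48 and 7.83%. BIRC3 was at 0 and 0.671%, the lowest tested member after PTGS2, which had no reads. The 288 line-specific genes had a median of 17.8 and 22.2% in the same libraries, so TNFAIP2 and ICAM1 lay near that median, and CD70 lay above it. Against parental SW480 itself, 22 of 31 members were lower with ERB and 1 was higher, CX3CL1 (1.71, SE 0.40, adjusted p = 0.00942), with 44.4% of all genes called by edgeR, 24.9% lower and 19.5% higher. TNFAIP2 was at -2.01 (SE 0.37, adjusted p = 0.00365), CXCL3 at -2.95 (SE 0.40, adjusted p = 0.00114), and BIRC3, with 1000 reads against 2, at a ratio of 279 (interval 77.2 to 2310). The SW480 ERB libraries also stood apart from parental SW480 in both sets of line-specific genes. Genes high in parental SW620 were at 54.4 and 48.3% of the parental SW620 mean with ERB, and at 4.58 and 5.59% in parental SW480. The part of the libraries' identity in this comparison was not tested. This comparison does without the libraries labelled SW480 with empty vector in its contrast. In it 7 of 8 tested epithelial and 2 of 3 tested fibroblast markers were higher than in parental SW480, with summed epithelial levels of 29990 and 16320 CPM against 5640 and 2927, and fibroblast levels of 13.6 and 12.4 CPM against 3.64 and 10.7, and their part was not tested. Its count was 12 without SW480 parental II, where 7.7% of all genes were called, 8 without SW480 ERB I, where 4.44% were, and 0 with the 6 SW480 libraries alone, where 0% of all genes were called. With GC and length offsets 23 members were lower and 2 higher, where 38.5% of all genes were called, but SOD2 turned from -1.08 to 1.13 (adjusted p = 0.0188), CCL20 from -1.87 to 0.29 and CFLAR from -1.03 to 0.56, so the fall of these GC-poor or long transcripts does not hold across scalings.

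Several regulators differed between libraries I and II of a group. Those described next were chosen after their values were seen. NFKB2, the precursor of p52, had 13.7 and 60.3 CPM in libraries labelled SW480 with empty vector, 55.9 and 39.3 CPM with ERB, and 49.0 and 37.2 CPM in parental SW480. RELB, its usual partner, had 2.78 and 12.7, 20.9 and 11.9, and 29.1 and 17.3 CPM in the same order. BCL3 had 1.35 and 4.23, 7.98 and 5.42, and 3.27 and 3.19 CPM. Library II of the vector group thus lay above the parental and ERB libraries of SW480 in NFKB2, and within their range in RELB and BCL3. Library I of the vector group lay within the SW620 range in these genes. REL moved the other way between libraries, with 19 and 193 reads in parental SW480, 16 and 3 in the vector group and 1 and 3 with ERB. REL transcripts have 38.7% GC and those of NFKB2, RELB and BCL3 62.4, 65.4 and 67.4%, and over the 31 members the Spearman correlation of GC content with the difference of library II from I was 0.73 in the vector group and -0.622 in parental SW480. The part of GC content in these differences was not tested gene by gene.

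Between the lines after transduction, the libraries labelled SW480 with empty vector and those of SW620 with empty vector differed in 0 of 31 members, with 6 at an unadjusted p under 0.05, where 0.326% of all genes were called by edgeR, 0.303% lower in SW480 and 0.0229% higher. DESeq2 called 2 members and 1.6% of its genes. Without SW480 empty vector I the count was 9, namely BCL3, CD83, CXCL16, ICAM1, NFKB2, NFKBIE, RELB, SAA1 and TNIP1, a share near the 23.6% of all genes called in that fit. The all-gene split was 4 higher and 53 lower in the main fit and 239 higher and 278 lower with GC and length offsets. With ERB in both lines, 6 of 31 members were higher in SW480 and 0 lower, where 2% of all genes were called, 1.71% higher and 0.292% lower. TNFAIP2 had 61.1 and 46.6 CPM in SW480 against 5.72 and 6.45 CPM in SW620 (3.14, SE 0.39, adjusted p = 0.00127), and ICAM1 had 53.4 and 48.4 against 3.98 and 4.12 CPM (3.65, SE 0.42, adjusted p = 0.000808). SAA1 had 312 and 285 reads against 2 and 0 (ratio 495, interval 137 to 4100), and CD70 had 116 and 132 reads against 0 and 0 (at least 137-fold). SAA2 and LTB completed the 6. The LTB call was lost when either ERB library of either line was left out, and on each FPKM scale. The SAA2 call was lost without either SW620 ERB library, and the TNFAIP2 call without SW620 ERB I. The count was 3 without SW620 ERB I (0.289% of all genes), 10 with GC and length offsets, where 5.78% of all genes were called, and 13 when both libraries labelled SW480 with empty vector were left out of the fit, where 6.6% of all genes were called. The latter fit added BCL3, CXCL16, IL32, NFKB2, NFKBIE, RELB and TNIP1. Offsets changed the split of all genes from 299 higher and 51 lower to 677 higher and 332 lower.

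In SW620, ERB against empty vector called 0 of 31 members, and 0 at an unadjusted p under 0.05, where 0.00573% of all genes, a single one, was called by edgeR. DESeq2 called 0 members and 0.00324% of its genes. Here too the estimate of the spread was shared with the SW480 groups. TNFAIP2 had 4.70 and 3.62 CPM with empty vector and 5.72 and 6.45 CPM with ERB, and ICAM1 had 3.13 and 2.74 against 3.98 and 4.12 CPM. Both ERB libraries lay above both vector libraries in these genes, by less than the test could tell from the spread. Of 31 members, 4 were higher and 4 lower without overlap, where 33.3% of genes would separate by chance. The ERB effect in SW480 minus that in SW620 was called for 1 member, TNFAIP2 (3.13, SE 0.53, adjusted p = 0.0437), where 0.189% of all genes were called, all higher. This call was lost without any 1 of the SW620 empty vector, SW620 ERB or SW480 ERB libraries, and 2 members were called without library I or without library II labelled SW480 with empty vector, where 0.453% and 0.498% of all genes were called. For ICAM1, CD70, SAA1, SAA2 and LTB the difference between the lines in the ERB effect did not pass the test, so their rise is not shown to be particular to SW480.

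The DMSO libraries were compared with untreated SW620 ERB cells. CX3CL1 alone of 31 members was called, lower with DMSO, where 6.15% of all genes were called by edgeR, 3.76% lower and 2.39% higher. CX3CL1 had 7.65 and 8.08 CPM with ERB and 2.04 and 1.33 CPM with DMSO (-2.21, SE 0.41, adjusted p = 0.0126). Elsewhere in SW620 it had 13.0 and 20.4 CPM in parental cells, 11.8 and 8.28 CPM with empty vector and 2.81 and 4.01 CPM with estradiol, so DMSO had the lowest libraries and parental cells the highest. The call was lost without any 1 of the 4 libraries. With offsets for GC content and length CX3CL1 was still lower (-1.90, adjusted p = 0.000732), and the split of all genes turned from 657 lower and 417 higher to 1810 lower and 1935 higher.

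Estradiol was compared with its DMSO control, both in ERB cells, to see the response of the set to the hormone. In the fit of 16 libraries 0 of 31 members were called, 7 were at an unadjusted p under 0.05, and 0% of all genes were called by edgeR although 3469 were at an unadjusted p under 0.05. DESeq2 also called 0 members, and 0.489% of its genes. With the 10 SW620 libraries alone, where 21 members were tested and the spread of the SW480 libraries no longer entered, 12 were called, 8 higher with estradiol and 4 lower, against 53% of all genes, 29.4% higher and 23.6% lower, so the members' share was near that of all genes. The 8 were NFKB2, RELB, BCL3, TNIP1, NFKBIE, CXCL16, TNFAIP2 and CX3CL1, and the 4 were BIRC3, SOD2, CCL20 and REL. These members are named after their values were seen.

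NFKB2 had 17.5 and 13.2 CPM with DMSO and 28.7 and 34.9 CPM with estradiol (1.06 in the SW620 fit, adjusted p = 0.00721), and RELB had 3.83 and 1.85 against 6.90 and 8.27 CPM (1.41, adjusted p = 0.00822). BIRC3 had 21 and 20 reads with DMSO and 2 and 1 with estradiol, a ratio of 10.8 with an interval from 3.45 to 54.6. SOD2 had 66.7 and 71.3 against 43.7 and 41.8 CPM (-0.68, adjusted p = 0.0118). The groups did not overlap in these genes. The 4 members that were lower with estradiol have transcripts of 34.8 to 41.7% GC, and the 8 that were higher have 55.4 to 67.4%. Over the 31 members the Spearman correlation of GC content with the log2 difference of estradiol from DMSO was 0.778, and over 17123 genes it was 0.824. With offsets for GC content and length in the SW620 fit, 1 of 21 members was called, CXCL3 (-0.92, adjusted p = 0.0317), where 17.7% of all genes were called. NFKB2 was then at 0.06, RELB at 0.26, BIRC3 at -1.60 (adjusted p = 0.0915) and SOD2 at 0.45, and none of the 12 members above was called.

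The DMSO step shared its DMSO libraries with the estradiol step, so the values are only set side by side. In the SW620 fit 9 of 21 members were called with DMSO against untreated ERB cells, where 48.8% of all genes were called, 23.6% higher and 25.2% lower, again a share near that of all genes. BIRC3 (1.72) and CCL20 (1.77) were higher with DMSO, and CX3CL1 (-2.20), BCL3 (-1.80), NFKBIA (-0.90), CD83, TNIP1, NFKBIE and TNFAIP2 were lower on the log2 scale. Against untreated ERB cells, which had 9.28 and 9.19 CPM of NFKBIE and 71.3 and 70.8 of TNIP1, the DMSO libraries had 5.19 and 6.12 and 48.9 and 48.1 CPM, and the estradiol libraries 10.7 and 12.4 and 92.1 and 98.0 CPM. For both genes the DMSO libraries were the lowest of the 3 groups and the estradiol libraries the highest. With offsets the count was 10, 4 higher and 6 lower, where 47.4% of all genes were called.

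**Figure D4:**
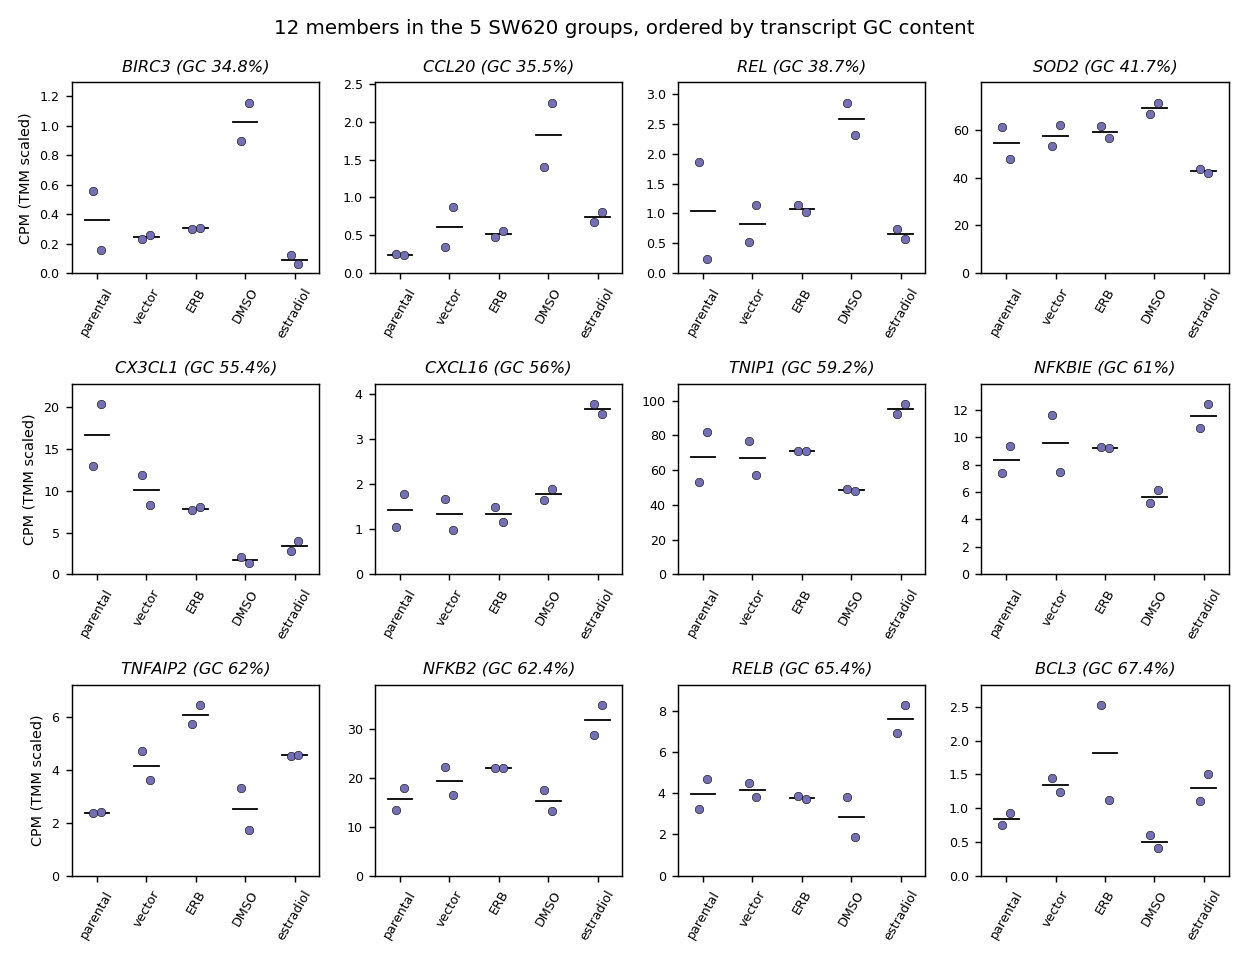
TMM-scaled CPM of the 12 members called between estradiol and DMSO in the fit of SW620 libraries alone, in the 5 SW620 groups (points are libraries, bars are means of 2), ordered by transcript GC content. The 4 GC-poor genes of the top row are highest with DMSO, such as BIRC3 at 21 and 20 reads against 2 and 1 with estradiol, and most of the GC-rich genes below are low with DMSO.

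Genes upstream of NF-kB and other TNF and NF-kB response genes were read beside the members. Of 48 upstream genes and further regulators of the pathway, 43 were tested. In parental SW620 against SW480, 3 were higher and 7 lower, beside 6.84% and 11.2% of all genes, with a median of -0.45 on the log2 scale against -3.10 for the members. TLR4, the receptor of bacterial lipopolysaccharide, was at -4.11 (SE 0.81, adjusted p = 0.00417), MAP3K8, a kinase that links the pathway to ERK, at -2.91 (SE 0.48, adjusted p = 0.0014), and IRAK2, a kinase of Toll-like and interleukin-1 receptors, at 2.30 (SE 0.32, adjusted p = 0.000448). In both libraries labelled SW480 with empty vector against parental SW480, 9 rose and 9 fell, beside 14.9% and 16% of all genes, and 0 were called with ERB against that vector, where 1 was at an unadjusted p under 0.05. In SW480 with ERB against parental SW480, 12 were higher and 17 lower, beside 19.5% and 24.9% of all genes. That comparison called 0% of all genes with the SW480 libraries alone. Between the lines with ERB in both, 0 upstream genes were called, where 2% of all genes were.

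Of 32 further response genes, 25 were tested. In parental SW620 12 were lower and 0 higher, beside 11.2% and 6.84% of all genes, among them IL8, a neutrophil chemokine (-5.67, SE 0.77, adjusted p = 0.000382), and LIF, a cytokine of the IL-6 family (-3.50, SE 0.43, adjusted p = 0.000205). In both libraries labelled SW480 with empty vector 12 were lower and 2 higher than in parental SW480, beside 16% and 14.9% of all genes. With ERB against that vector 1 was called, complement C3 (5.07, SE 0.72, adjusted p = 0.00445), where 1.1% of all genes were, and with ERB in both lines C3, LIF and LCN2 were higher in SW480, where 1.71% were. C3 is made in the acute phase like SAA1 and SAA2, which were also called higher in both of these comparisons. In SW480 with ERB against parental SW480, 9 response genes were lower and 1 higher, beside 24.9% and 19.5% of all genes.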

How the data were processed

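Poly(A) RNA of the 16 libraries was made into stranded libraries with a TruSeq kit, per the labels' protocols. Read counts and FPKM, both per gene, are as the authors deposited them. TopHat2 2.0.4, SAMtools, Picard 1.29, HTSeq 0.6.1, Cufflinks 2.1.1 and the build GRCh37 are named, per the submitters' processing notes; the tool behind each table and the use of strand in counting are not given in the sources used here, so overlapping and antisense reads may be mixed. The count table held 0 lines naming no gene and 0 other per-sample columns.

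Counts were filtered (filterByExpr), TMM scaled and fitted in 1 quasi-likelihood model with 8 groups (edgeR 4.0.16, R 4.3.3), with all groups sharing 1 estimate of the spread. Two-sided p-values were Benjamini-Hochberg adjusted over 17464 genes and called under 0.05. Folds against groups of 0 reads took 3 reads over the group as the floor, with TMM-scaled library totals, and ratios on 1 to 3 reads carry exact 95% intervals, which cover counting error only. Deposited FPKM served for levels between genes and, on log2(FPKM + 1) with limma 3.58.1, as an alternative. GC content and length came from GENCODE 29 (98% of tested genes). The tests were checked on simulated data.

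The members, lists and tests were chosen with earlier results of these data known. Values per library are given for the members called in 3 or more of the 6 comparisons that involve SW480, up to 14, which were TNFAIP2, TNFAIP3, ICAM1, LTB, BIRC3, CXCL1, CXCL2, CXCL3, CCL2, IL32, TRAF1, CFLAR, SAA1 and CSF2; others named with values were chosen after these were seen. Some genes of the wider lists are not reported here.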

Additional observations from a re-analysis of the deposited data

Results flagged for a closer look

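The effect of the empty vector differed between the lines for 11 members (edgeR, interaction of line and vector, adjusted over all genes). On the log2 scale, the effect in SW480 minus the effect in SW620 was -6.49 for TNFAIP2 (adjusted p = 0.000211), -5.22 for ICAM1 (0.000671), -6.01 for CXCL1 (0.000599), -6.73 for CXCL2 (0.0436), -2.96 for CXCL3 (0.00928) and -4.77 for CCL20 (0.0183). It was -6.97 for IL32 (adjusted p = 0.0142), -7.28 for LTB (0.00509), -6.08 for BIRC3 (0.0242) and -3.06 for TRAF1 (0.0156). SAA2 was at -14.41 (adjusted p = 0.0457), a fitted value from groups with 0 reads that gives no bound. All 11 rest on the libraries labelled SW480 with empty vector. In these the genes high in parental SW480 were near the SW620 level. The genes high in parental SW620 were at 28.8 and 66.2% of the parental SW620 mean. The effect of ERB against empty vector differed between the lines for TNFAIP2 by 3.13 (adjusted p = 0.0437), a value that rests on the same libraries.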

How the results depend on the processing

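With 2 libraries a group, counts moved with the fit; the percentage in brackets is the share of all genes called in the same fit. The ERB effect between lines, 1 member in the main fit, gave 0 with RLE factors (0.16%), 2 with GC and length offsets (0.658%), 3 with limma-voom (0.292%), 3 with log2(FPKM + 0.1) (0.223%), and 5 with log2(FPKM + 1), filtered (0.343%) or not (0.339%). The vector effect between lines, 11 in the main fit, gave 20 with the offsets (22%), 17 with DESeq2 (15.1%), 18 with limma-voom (9.41%) and 17 with unfiltered FPKM (5.27%). SW480 against SW620 with empty vector, 0 in the main fit, gave 2 without the low-count filter (1.11%), 4 with the offsets (2.96%) and 2 with DESeq2 (1.6%). The same with ERB, 6 in the main fit, gave 14 without the filter (9.68%), 10 with the offsets (5.78%), 11 with DESeq2 (4.45%) and 13 without the libraries labelled SW480 with empty vector (6.6%). DMSO against ERB, 1 in the main fit, gave 4 without the filter (9.2%), 3 with DESeq2 (15.1%), 2 with each FPKM scale (4.31 to 7.85%), 6 without the libraries labelled SW480 with empty vector (19.9%), 9 with SW620 libraries alone (48.8%) and 10 with offsets there (47.4%). Estradiol against DMSO, 0 in the main fit, gave 2 without the filter (6.31%), 12 with SW620 alone (53%) and 1 with offsets there (17.7%). With SW480 libraries alone, 12 members were called for vector against parental (4.39%), 0 for ERB against vector and 0 for ERB against parental (0% in both). With offsets CFLAR turned to 0.046 for vector against parental and 0.56 for ERB against parental (0.16 and 0.61 with SW480 alone), SOD2 to 1.13 (1.14) and CCL20 to 0.29 (0.30) for ERB against parental. The cause of these moves was not tested.

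Leaving out 1 library gave 16 to 24 members called between the parental lines, 19 to 24 for the vector in SW480, 2 to 10 for ERB against vector and 8 to 21 for ERB against parental there. It gave 0 to 9 between the lines with empty vector, 3 to 5 with ERB, 0 to 0 for DMSO, 5 to 17 for the vector effect and 0 to 2 for the ERB effect between lines. In SW620, vector against parental and ERB against vector stayed at 0 in each such fit. The replicate block took the ERB effect between lines to 0 and moved no other count by over 1.5 times. The difference between libraries I and II correlated over 0.1 in 9 of 28 pairs of groups, from -0.698 to 0.621. These differences also followed transcript GC content, so the correlation cannot tell whether the numbers I and II pair the libraries. Members under about 10 reads a library, such as BIRC3 or CXCL2 outside parental SW480, limit what can be told.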
